A study of Mus musculus with 15 samples.

Results

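Mouse embryonic fibroblasts that lack stathmin were compared with fibroblasts that carry it: 7 arrays lacking the gene (4 of stathmin knock-out and 3 of p27 and stathmin double knock-out) against 8 arrays carrying it (4 of wild type and 4 of p27 knock-out), which together are all 15 arrays of the series. The arrays were chosen by genotype label alone, and p27 status entered the comparison as a term, so that each gene has 1 log2 difference, lacking minus carrying stathmin, averaged over cells with and without p27. All cells were of the C57B6 background, came from embryos of 13.5 days post coitum, were at passage 3, and were lysed at high confluence after 24 h without serum. The labels name the knock-out sources p27_KO1, stathmin_KO2 and p27_stathmin_DKO without saying how the alleles were made, and describe arrays that share a genotype as biological replicates. On every array, 1 hybridisation set a red-labelled sample beside a green-labelled reference of pooled embryonic fibroblast RNA, so a level is given as a log2 ratio of sample over reference.

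Stathmin, encoded by Stmn1, is a small phosphoprotein that binds tubulin dimers and promotes the shortening of microtubules; phosphorylation by mitotic and growth-factor-driven kinases switches it off. p27, encoded by Cdkn1b, inhibits cyclin-dependent kinases and has also been described as a binding partner of stathmin.

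Few genes were called as differing by stathmin status, and a short list of calls does not show that few genes differ. Counted with 1 probe per gene, of 18710 genes tested, 2 passed an adjusted p of 0.05 (0.0107%). Rpl11, a protein of the large ribosomal subunit, was lower in the ratio and Pdik1l, a serine/threonine kinase, was higher, and both start within 2 Mb of Stmn1 on chromosome 4. Most of the Rpl11 difference was in the reference dye, and its sample dye alone did not pass. The Pdik1l call was lost in 11 of 15 fits that left out 1 array, and its other probe pointed the opposite way. Counted by probe, a Stmn1 probe and a probe of Gadd45gip1 on chromosome 8 passed as well. With 1 probe per gene, no list of genes for microtubules, mitosis, the interferon response or any other process held a member that passed, apart from the ribosomal proteins through Rpl11. A second stretch with many small differences, on chromosome 8, was found after the values were seen.

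Between 59.3 and 78.9% of an array's spots were well above background in the sample dye. The median 95% interval of a gene's log2 difference reached 0.35 to either side. All 13 fibroblast markers, among them Vim and Col1a1, were well above background on every array. Each of the 4 slides held 1 array per genotype, except slide 2, which lacked the double knock-out. Within slides, wild type was at position 1, p27 knock-out at 2, double knock-out at 3 and stathmin knock-out at 4. Stathmin status and position therefore cannot be told apart. Xist was high on 3 of the 7 lacking and 2 of the 8 carrying arrays. Ddx3y, a gene of the Y chromosome, was at -7.48 to -7.22 on those 3 lacking arrays and at -7.24 on p27 knock-out 2. It was at -0.27 or above on all others, among them wild type 1, where Xist was 0.20. The median log2 difference over 5 sex-linked genes was -1.52, with none at an unadjusted p under 0.05. Wild type 3 and 4 correlated at 0.837 across genes against at most 0.655 for any other pair of arrays.

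The targeted gene was read by 2 probes that disagree. The dimmer one (A_52_P319161) gave log2 ratios of 0.71, 0.87, 0.80 and 0.64 on the wild type arrays and 0.69, 0.41, 1.49 and 1.18 on the p27 knock-out arrays. It gave -2.82, -2.64, -2.68 and -2.98 in stathmin knock-out and -2.82, -2.68 and -2.80 in double knock-out. The 7 arrays lacking stathmin, from -2.98 to -2.64, lay far below all 8 others, from 0.41 to 1.49. The difference of -3.61 (SE 0.138, adjusted p = 3.99e-09 over 27700 probes, of which 4, or 0.0144%, passed) was between -3.51 and -3.82 within each of the 4 slides. Raw sample intensity at this probe was 2024 to 2350 units without the gene and 18501 to 46325 units with it, and stayed well above background on all 7 lacking arrays. The brighter probe (A_51_P495641), which stands for Stmn1 in counts of genes, ranged from -0.85 to -0.03 (median -0.40) on the lacking arrays and from -0.63 to 0.80 (median -0.04) on the carrying ones. Those ranges overlap, and its difference of -0.42 (SE 0.206, adjusted p = 1.00 after rounding) did not pass. Both probes are assigned to the same gene, on chromosome 4 from 134468320 to 134473843 of GRCm38.p6, and where each lies within it was not analysed here. Cdkn1b, the other targeted gene, had 1 tested probe, with log2 ratios of 0.93, -0.22, 0.08 and 0.08 in wild type and 0.34, 0.17, -0.46 and -0.39 in stathmin knock-out. The ratios were -0.15, -0.18, 0.05 and -1.10 in p27 knock-out and 0.19, -1.36 and -1.09 in double knock-out. Arrays labelled as lacking and carrying p27 overlap at this probe, whose place in the gene was not analysed here, so this probe gives no check of the p27 labels. Its difference by stathmin status was -0.35 (SE 0.258, adjusted p = 1.00 after rounding). The array's other Cdkn1b probes were too dim to be tested. Of them, A_51_P169173 (raw sample intensity 91 to 156 units) gave 0.22 to 0.36 in wild type and 0.53, 0.22, 0.07 and -0.13 in stathmin knock-out. On the arrays labelled as lacking p27 it gave -0.20 to -0.08, so stathmin knock-out 4 lay among them. At A_52_P673863 the arrays lacking and carrying p27 overlap.

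**Figure D1:**
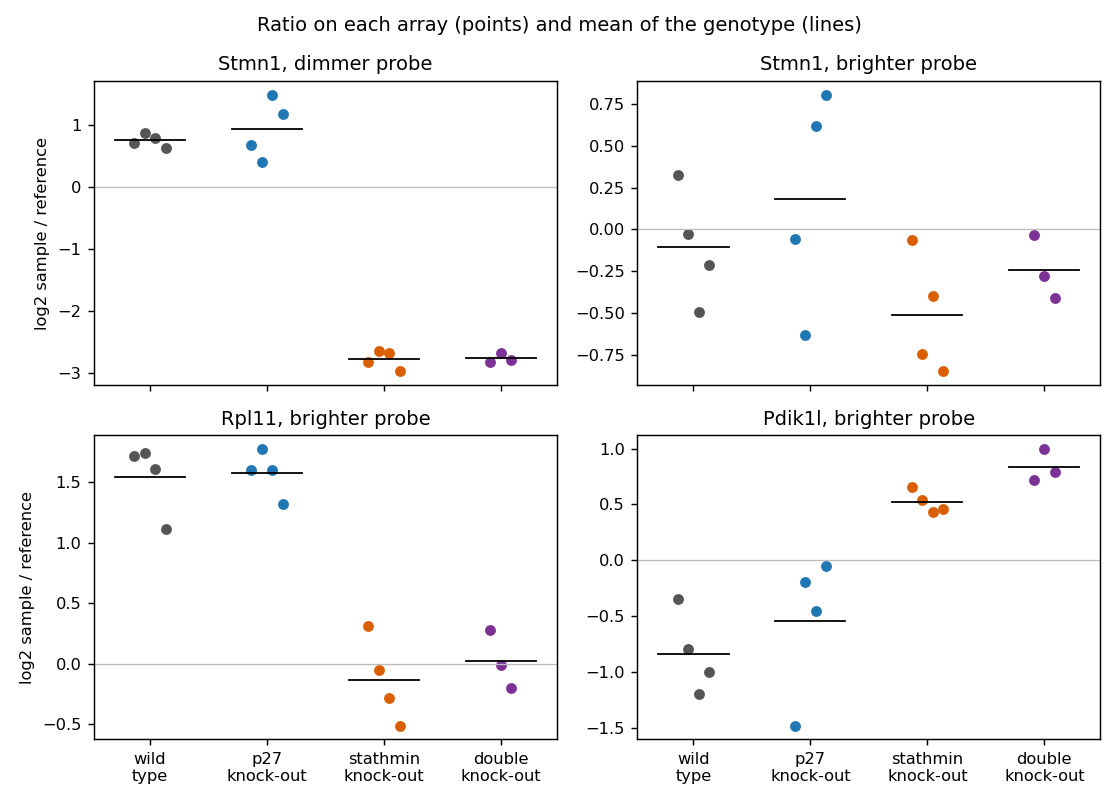
Log2 ratio of sample over reference (vertical axis) on each array (points) by genotype, with the mean of each genotype as a line, for both Stmn1 probes and for the brighter probes of Rpl11 and Pdik1l. The dimmer Stmn1 probe, Rpl11 and Pdik1l separate the 7 lacking arrays from the 8 carrying ones, while the brighter Stmn1 probe does not.

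Rpl11 lies on chromosome 4 from 136049354 to 136053393, 1581 kb from the start of Stmn1. Its brighter probe gave log2 ratios of 1.72, 1.74, 1.61 and 1.12 in wild type and 1.60, 1.77, 1.60 and 1.32 in p27 knock-out. The ratios were 0.31, -0.05, -0.28 and -0.51 in stathmin knock-out and 0.28, -0.01 and -0.20 in double knock-out. Every lacking array was below every carrying one. The difference of -1.62 (SE 0.139, adjusted p = 0.000209) was -1.68 against wild type and -1.55 against p27 knock-out, and the change between these, 0.13 (SE 0.287, adjusted p = 0.933), did not pass. Within slides it was -1.37, -1.79, -1.75 and -1.58. The call was kept when any 1 array was left out, with adjusted p-values from 0.000158 to 0.00141. Without slide 3 its difference was -1.57 and no longer passed (adjusted p = 0.146).

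Most of the Rpl11 difference was in the reference dye, which carried the pooled reference RNA and not RNA of the compared cells. Stathmin status and slide position cannot be told apart in this design, and the cause of the reference difference was not tested. Raw reference intensity at the probe was 61544 to 122674 units on the carrying arrays (median 76395) and 155719 to 224517 units on the lacking arrays (median 171843), with no overlap. Raw sample intensity was 449819 to 612649 units on the carrying arrays and 352587 to 472614 units on the lacking ones, and these ranges overlap. After normalisation of each channel, the reference differed by 1.14 on the log2 scale (SE 0.0965, adjusted p = 0.000158) and the sample by -0.49 (SE 0.103, adjusted p = 1.00 after rounding). Over all genes the reference channel alone called 2 genes (0.0107% of 18710), Rpl11 and ENSMUST00000033039. The latter is a probe that the array files describe as similar to 60S ribosomal protein L11, singled out here after its values were seen. Its log2 ratio differed by -1.76 (SE 0.257, adjusted p = 0.0653) and its reference channel by 0.95 (adjusted p = 0.0461), with double knock-out 3 left out of its fit as an outlier spot. Near-identical ribosomal protein sequences can hybridise to 1 probe, so the 2 probes may not be independent readings. The other Rpl11 probe, whose reference intensity was 1039 to 1269 units on all arrays, had a difference of 0.37 (SE 0.336, adjusted p = 1.00 after rounding) in the opposite direction, and the mean of both probes gave -0.63 and did not pass.

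**Figure D2:**
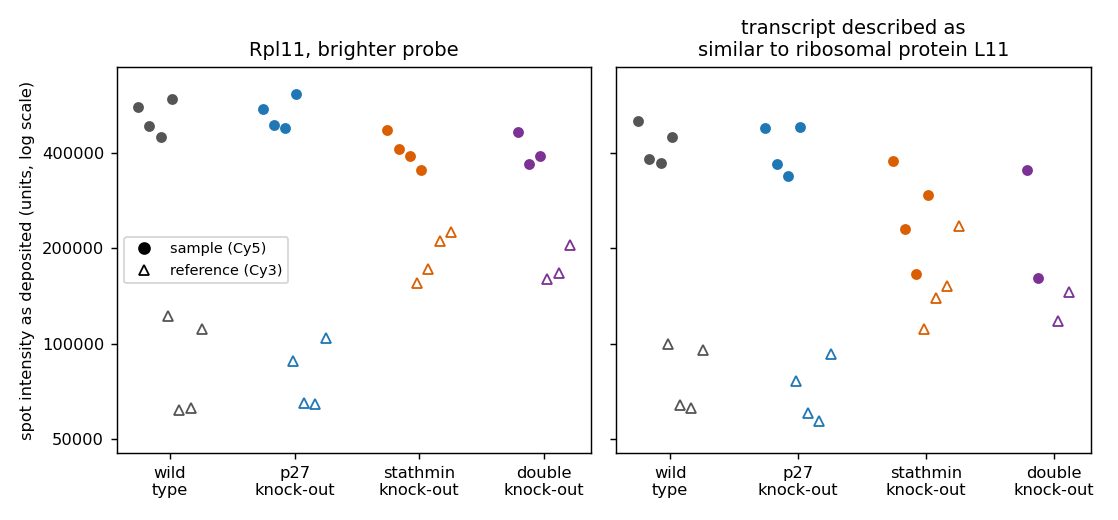
Spot intensity as deposited, on a log axis, in the sample dye (filled circles) and the reference dye (open triangles) for each array by genotype, at the brighter Rpl11 probe (left) and at the transcript described as similar to ribosomal protein L11 (right). At Rpl11 the reference lies at 155719 units or more on all lacking arrays and at 122674 units or less on all carrying ones.

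Pdik1l lies 193 kb before Stmn1, on chromosome 4 from 134275002 to 134287846, and encodes a kinase named for its kinship to a partner of the PDZ and LIM protein Pdlim1. Its brighter probe gave log2 ratios of -0.35, -0.79, -1.20 and -1.002 in wild type and -1.48, -0.19, -0.45 and -0.05 in p27 knock-out. The ratios were 0.65, 0.54, 0.43 and 0.46 in stathmin knock-out and 0.72, 0.99 and 0.79 in double knock-out, so every lacking array was above every carrying one. The difference of 1.37 (SE 0.189, adjusted p = 0.0356) was in the sample channel, at 1.46 (adjusted p = 0.0415, the 1 gene or 0.00534% that this channel called alone), and the reference differed by 0.09. It was 1.36 against wild type and 1.38 against p27 knock-out, and 1.15 to 1.60 within slides. Of 15 leave-one-array-out fits, 4 kept the call, and in the other 11 the adjusted p was between 0.0762 and 0.169. It also lost the call with the replicate number as a block (1.38, adjusted p = 0.105) or the slide as a fixed block (1.39, adjusted p = 0.146), and without slide 3 it was 1.29 and did not pass. In all, 22 of 39 other settings ended the call of Pdik1l, against 3 of 39 for Rpl11. The other Pdik1l probe pointed the opposite way, with a difference of -0.44 (SE 0.161) that had an unadjusted p under 0.05 and did not pass, and the mean of both probes was 0.46 and did not pass.

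No other gene passed, so the neighbourhood of Stmn1 is described at an unadjusted p under 0.05. Of all 18710 genes, 227 (1.21%) reached it, 125 of them higher (0.668%) and 102 lower (0.545%). Evenly spread p-values would put a share of 0.05 of the genes under this threshold, more than was seen, and why was not tested. Among the 78 tested genes that start within 2 Mb of Stmn1, 15 reached it (19.2%; 9 higher and 6 lower), and no further gene did out to 10 Mb on either side (15 of 263, or 5.70%). The 2 Mb limit was set after the values were seen. Fuca1, a lysosomal fucosidase, had a difference of 0.73 (SE 0.160). Fuca1 ranged from -0.14 to 0.46 (median 0.23) on the lacking and from -1.02 to 0.07 (median -0.58) on the carrying arrays. These ranges overlap, and its second probe gave a difference of 0.03.

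Regulators in the same stretch went both ways. Asap3, a GTPase-activating protein for Arf proteins, had a difference of 1.33 (SE 0.311), with -0.48 to 1.13 (median 0.31) on the lacking and -2.07 to 0.52 (median -1.06) on the carrying arrays. Runx3, a Runt-family transcription factor, was at 0.94 (SE 0.275), although its other probe gave -0.02. E2f2, an activating E2F factor, was at -0.59 (SE 0.168), and Tcea3, a transcription elongation factor, at -1.09 (SE 0.410), where both probes pointed down. For Asap3, Runx3, Fuca1 and E2f2 the difference against wild type (1.96, 1.31, 1.10 and -0.86) was larger in size than that against p27 knock-out (0.60, 0.52, 0.29 and -0.27), and for Tcea3 it was smaller (-0.46 and -1.82). No interaction passed for these genes. The remaining named neighbours were smaller: Cep85, a centrosomal protein, at 0.43, Pithd1 at 0.37, Mtfr1l, related to mitochondrial fission regulators, at 0.34, and Extl1, an exostosin-like glycosyltransferase, at 0.31. The other Mtfr1l probe had medians of -0.01 on the lacking and -0.06 on the carrying arrays, and the other Extl1 probe -0.01 on both. The other Pithd1 probe had a higher median on the lacking arrays. Of the genes in this stretch with several tested probes and 1 of them under the threshold, 5 of 10 had another probe pointing the other way, against 38 of 139 (27.3%) at other positions.

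**Figure D3:**
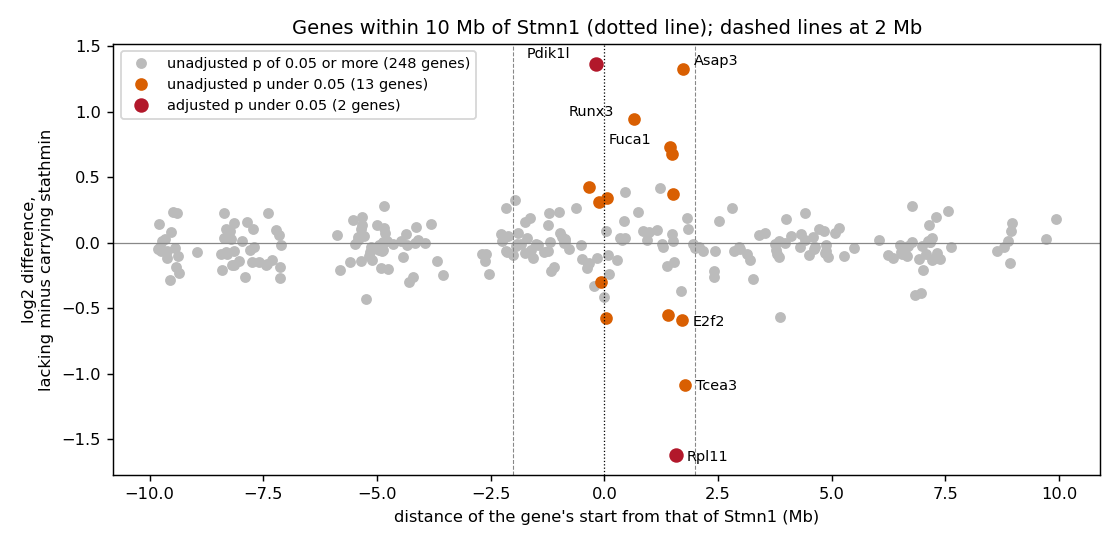
Log2 difference, lacking minus carrying stathmin (vertical axis), of each of the 263 genes tested within 10 Mb of Stmn1 against the distance of its start from that of Stmn1 in Mb. All 15 genes at an unadjusted p under 0.05 lie within 2 Mb, 9 above and 6 below 0, and 2 of them also passed the adjusted p.

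By chromosome, the share of genes at an unadjusted p under 0.05 was highest on chromosome 8 (29 of 781, or 3.71%) and chromosome 4 (23 of 943, or 2.44%), and at most 1.76% on any other. Of 276 bins of 10 Mb, 4 held more than 3 such genes: chromosome 4 from 130 to 140 Mb held 15, and chromosome 8 held 7 from 70 to 80 Mb, 6 from 80 to 90 Mb and 10 from 90 to 100 Mb. Chromosome 8 from 70 to 100 Mb, a window chosen after these counts, held 23 of 253 (9.09%; 11 higher and 12 lower), and the rest of chromosome 8 held 6 of 528 (1.14%). Positions outside this window and beyond 10 Mb of Stmn1 held 134 of 14740 (0.909%). No gene on chromosome 8 passed the adjusted p in counts of genes.

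**Figure D4:**
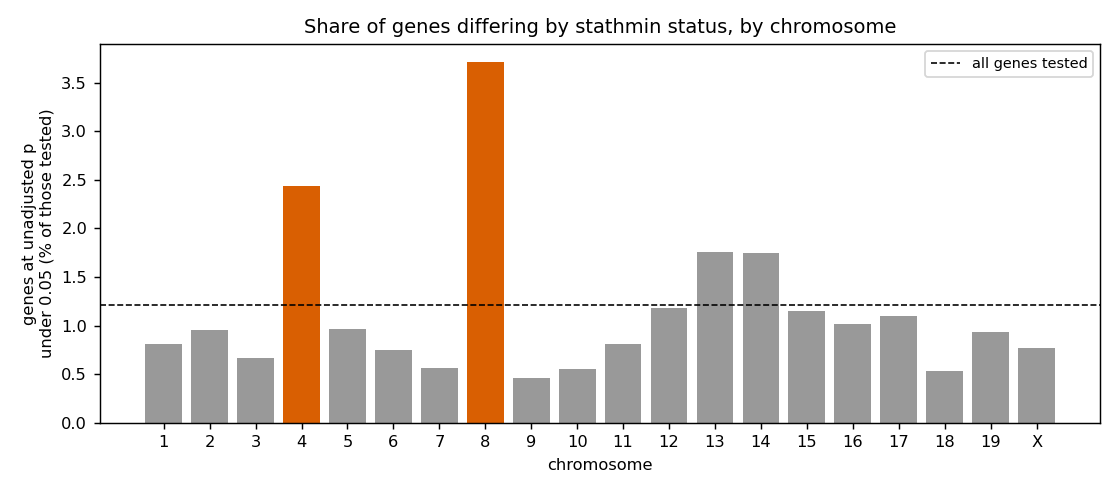
Percent of the tested genes of each chromosome with an unadjusted p under 0.05 for stathmin status (bars from 0), with the share over all genes tested, 1.21%, as a dashed line. Chromosomes 4 (2.44%) and 8 (3.71%) stand above the others; chromosome Y, with 7 tested genes, is not drawn.

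Named genes of the chromosome 8 window were of several kinds. They are not simply those with the smallest p there. By the limma test Irx5 had an unadjusted p of 0.0469, while Heatr3, at 0.0131, is not described. Crnde, a long non-coding RNA, had a difference of 0.59 (SE 0.130), with 0.07 to 0.78 (median 0.45) on the lacking and -0.32 to 0.12 (median -0.28) on the carrying arrays. Its neighbours Irx3 and Irx5, homeobox transcription factors of limb and body-wall patterning, were at -0.65 (SE 0.188) and -0.59 (SE 0.272). In Irx3 the reference channel also differed, by -0.60. Among enzymes, Lpcat2, which remodels phospholipids, was at 1.22 (SE 0.315), with -0.54 to 1.35 (median 0.83) on the lacking and -1.40 to -0.03 (median -0.68) on the carrying arrays, and Ces1g, a carboxylesterase, at -1.24 (SE 0.400). Ocel1, an occludin/ELL domain protein, was at -1.12 (SE 0.262), with -1.24 to -0.35 on the lacking and -0.84 to 1.15 on the carrying arrays. Ndrg4 was at 0.83, Ciapin1, which serves iron-sulphur cluster assembly, at -0.47, the unnamed locus 4831440D22Rik at -0.53, and Ccl17, a chemokine, at -1.04. The other 4831440D22Rik probe had medians of 0.09 on the lacking and 0.11 on the carrying arrays. By their medians, the other probes of Ndrg4 and Ciapin1 pointed the same way as those given. Map1s, a microtubule-associated protein in the same window, was at 0.39 (SE 0.168). None of these passed. Ces1g, Ccl17, Clgn and Gadd45gip1 were named after their values were seen.

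Gadd45gip1, a protein of the mitochondrial ribosome on chromosome 8, shows how far 2 probes of a gene can part. Its dimmer probe passed in counts of probes, with -1.67 to -0.65 (median -1.18) on the lacking and -0.49 to 0.86 (median 0.39) on the carrying arrays, which do not overlap, and a difference of -1.47 (SE 0.196, adjusted p = 0.0224 over probes). Its brighter probe was at 0.70 (SE 0.284), the other way, at an unadjusted p under 0.05. Pdik1l was the only other gene at any named position that held probes under this threshold in both directions.

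Overlap between the arrays was also counted without a model. In 9 of the 18710 genes (0.0481%), the lacking and carrying arrays did not overlap, 2 of them higher (0.0107%) and 7 lower (0.0374%). How many genes would separate in this way by chance was not worked out, and missing values make it easier. Only 3 of the 9, out of 17996 such genes, had a value on all 15 arrays: Rpl11, Pdik1l and Clgn, a chaperone of the endoplasmic reticulum on chromosome 8. Clgn ranged from -0.65 to -0.11 on the lacking and from -0.10 to 1.11 on the carrying arrays (difference -0.49, SE 0.156).

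Named genes outside both stretches did not pass either. Efcab7, a ciliary protein further along chromosome 4, ranked next after Pdik1l among genes with a symbol, at 1.08 (SE 0.230), with -0.39 to 0.99 (median 0.42) on the lacking and -1.48 to 0.01 (median -0.54) on the carrying arrays. The keratin genes Krt7 (-1.15, SE 0.283) and Krt80 (-0.75, SE 0.213) were below 0 on all 7 lacking arrays, but values below 0 occurred in p27 knock-out as well. Krt7 log2 ratios were 1.10, 0.40, 1.06 and 1.07 in wild type and -0.39, -0.27, -1.52 and -0.63 in p27 knock-out. Those of Krt80 were 0.55, 0.24, 0.89 and 0.01 in wild type and 0.19, -0.09, -0.75 and -0.73 in p27 knock-out. For both genes, wild type was thus the only genotype above 0 on every array. Mcpt4 and Mcpt9, mast cell proteases that lie near each other on chromosome 14 and belong to 1 multigene family, were at 1.02 (SE 0.318) and 1.11 (SE 0.335), and whether their probes share signal was not tested. Dner, a transmembrane ligand of Notch, was at -0.96 (SE 0.243) and its second probe at -0.81. Actr3b, a subunit of the actin-nucleating Arp2/3 complex, was at -0.57 (SE 0.160), Doc2g at 0.48, Asb1 at 0.30 and the pseudogene Pisd-ps3 at 0.90. The other Asb1 probe had medians of 0.05 on the lacking and 0.01 on the carrying arrays. By their medians, the other probes of Actr3b, Doc2g and Pisd-ps3 pointed the same way as those given.

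The effect of stathmin loss was next read as 2 separate differences that share no array, stathmin knock-out minus wild type and double minus p27 knock-out. Both were measured on the same slides against the same reference. No gene had an interaction with an adjusted p under 0.05 in limma, while 1374 (7.34% of 18710) had an unadjusted p under 0.05. That is above the share of 0.05 that evenly spread p-values would give. Of 889 genes with an unadjusted p under 0.05 in the first difference, 193 (21.7%) had the same direction in the second. Across all genes the 2 differences correlated at -0.48 (Pearson) and -0.41 (Spearman), as a description over genes that share arrays. Within 2 Mb of Stmn1 the same direction held for 11 of 11 such genes, and the correlation over 77 genes was 0.58 (Spearman 0.36), but only 3 of the 11 had an unadjusted p under 0.05 in the second difference. Out to 10 Mb it held for 13 of 17, with a correlation over 262 genes of 0.07 (Spearman -0.13). The 2 Mb limit was set on the pooled values, which average both differences, so these counts are no independent check of it. In the chromosome 8 window the same direction held for 14 of 24, of which 5 had an unadjusted p under 0.05 in the second difference. The correlation over the 251 genes of that window was -0.04 (Spearman 0.0004). This window too was chosen on the pooled values, so its count is no independent check. The same direction held elsewhere on chromosome 8 for 8 of 25, and at positions outside this window and beyond 10 Mb of Stmn1 for 124 of 685 (18.1%).

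Microtubule genes were looked at first among the lists, since stathmin acts on tubulin. Of 16 tubulin genes, all tested, 12 were below and 4 above 0, with a median log2 difference of -0.16 against 0.00 over all genes tested, of which 48.6% were above 0. That median was -0.23 against wild type and -0.02 against p27 knock-out, and with 1 array left out it ran from -0.22 to -0.04, the last without stathmin knock-out 2. No tubulin gene reached an unadjusted p under 0.05, and the smallest p-values were those of Tubb4b at -0.20 and Tuba4a at -0.18. Of 29 microtubule-associated and tip proteins, 13 were above and 16 below 0, with a median of 0.00, and Map1s was the only one at an unadjusted p under 0.05. Of 17 genes of tubulin folding and modification, 7 were above and 10 below 0 (median -0.02). Of 16 kinases that phosphorylate stathmin, 13 were below 0 (median -0.06).

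Lists of the cell cycle leaned to one side without a call. The log2 difference was below 0 for 53 of the 55 genes of mitosis (median -0.31), and none reached an unadjusted p under 0.05. Aurkb, a kinase of chromosome segregation that also phosphorylates stathmin, was at -0.62, Cdc20, the activator of the anaphase-promoting complex, at -0.52, and Spc24, of the kinetochore, at -0.46. The list median was -0.70 against wild type and 0.12 against p27 knock-out. Its mean per array was -1.38 in stathmin knock-out 2 and -0.58 in stathmin knock-out 4, and between -0.04 and 0.18 on the other 5 lacking arrays. On the carrying arrays it ran from -0.83 in p27 knock-out 2 to 0.71 in p27 knock-out 3, so the 2 sets overlap. The median was -0.47 without p27 knock-out 2 and -0.12 without stathmin knock-out 2, the ends of its range with 1 array left out. Of 42 DNA replication genes, 34 were below 0 (median -0.12), with -0.42 against wild type and 0.24 against p27 knock-out. With 1 array left out this median ran from -0.24 (without p27 knock-out 2) to -0.01 (without stathmin knock-out 2).

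The interferon response leaned the other way, with 39 of 40 tested genes above 0 (median 0.28) and none at an unadjusted p under 0.05. The list median was 1.24 against wild type and -0.81 against p27 knock-out, on opposite sides of 0. With 1 array left out it ran from -0.14 (without stathmin knock-out 4) to 0.58 (without p27 knock-out 3), so that 1 array turned its direction. The mean of the list per array was above 0 on stathmin knock-out 4 (1.44), double knock-out 1 (0.40) and p27 knock-out 2 and 3 (1.03 and 1.69), and below 0 on the other 11 arrays. Genes of MHC class I presentation had the same order, with 0.80 against wild type, -0.71 against p27 knock-out and 0.05 over both, and -0.04 without stathmin knock-out 2 or 4. Of 22 immediate-early genes, which growth factors induce through ERK, 19 were below 0 (median -0.34), and of 23 hypoxia and glycolysis genes 20 were below 0 (median -0.15), in both lists with none at an unadjusted p under 0.05. The immediate-early median ran from -0.50 to -0.17 with 1 array left out, the last without stathmin knock-out 1. The hypoxia median was 0.18 against wild type and -0.49 against p27 knock-out, and ran from -0.30 (without stathmin knock-out 4) to -0.01 (without double knock-out 2). Of 57 ribosomal proteins, 47 were below 0 with a median of -0.08, 1 was called (Rpl11), and the next smallest p was that of Rpl32 at -0.18.

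Markers of other cell types were read the same way. Of 14 tested epithelial markers 12 were below 0 (median -0.14), with Krt7 and Krt80 as the 2 at an unadjusted p under 0.05. The list mean ran from -0.47 to -0.07 on the lacking arrays and from -0.51 to 0.35 on the carrying ones. Of 23 tested macrophage and blood markers 22 were below 0 (median -0.23), with list means from -2.23 to 1.36 on the lacking and from -2.56 to 1.68 on the carrying arrays. The 2 sets overlap over most of their range, and the list median ran from -0.61 (without p27 knock-out 3) to 0.16 (without double knock-out 1) with 1 array left out. In RNA of a whole culture, fewer cells of a type and less RNA per cell cannot be told apart, and what these markers contribute to the gene differences was not tested. The lists of collagens (median -0.07 over 27 genes) and fibroblast markers (0.10 over 13) had no member at an unadjusted p under 0.05, and both medians changed sign with 1 array left out (-0.14 to 0.06 and -0.09 to 0.15).

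**Figure D5:**
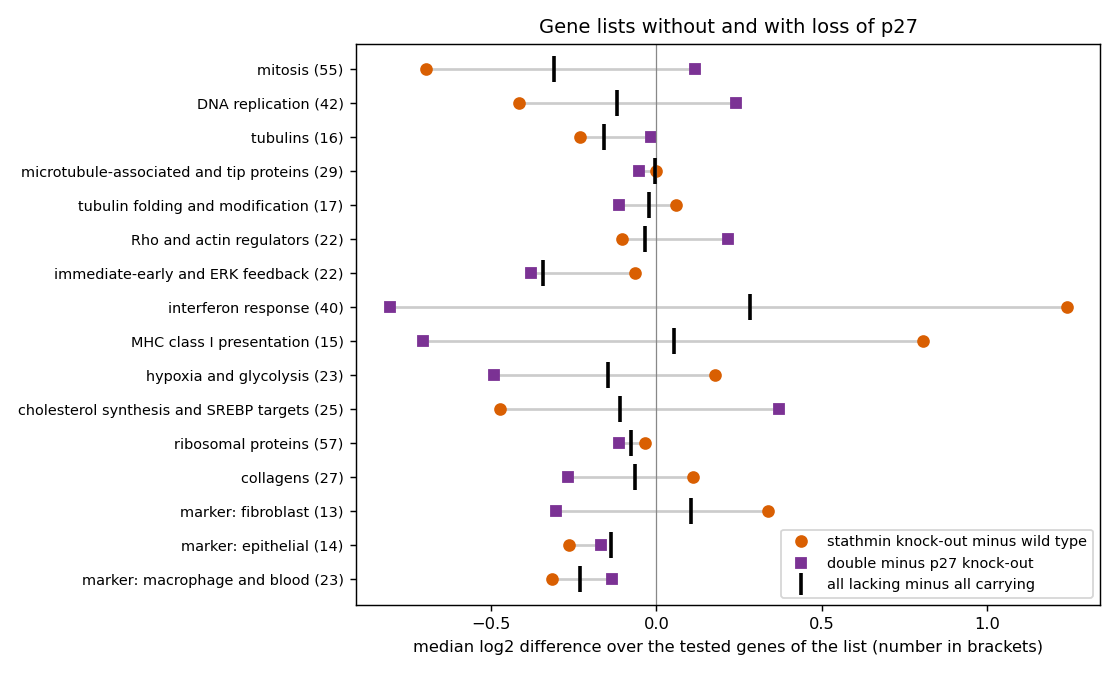
Median log2 difference over the tested genes of each list, for stathmin knock-out minus wild type (circles), double minus p27 knock-out (squares) and all lacking minus all carrying arrays (bars). For mitosis, the interferon response and MHC class I presentation the 2 separate differences fall on opposite sides of 0, and for microtubule-associated proteins both lie near 0.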

How the data were processed

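RNA of 15 fibroblast cultures was measured on 2-colour Agilent arrays; per the labels, samples carried Cy5 and a pooled reference Cy3, with no dye swap. Scanning was read out by Feature Extraction 9.1.3.1, per the file headers. Its deposited spot values are intensity, and its own ratio of red over green is deposited on a log10 scale. A table of log2 ratios made by the authors was deposited too; its normalization is not given in the sources used here. It correlated with the scanner ratio at 0.821 to 0.936 per array, and column medians were 0.0039 to 0.0522.

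In limma 3.58.1 (R 4.3.3), intensities were corrected by normexp (offset 50), ratios normalised by loess, outlier spots dropped and replicate spots averaged. Tested were the 27700 probes that the scanner software called well above background in the sample dye for 3 or more arrays of some genotype. The brightest tested probe stood for a gene, so a gene's direction rests on that probe. RefSeq (GRCm38.p6) names came through accession for 18206 probes, symbol for 4017 and older symbol for 1906; 3571 kept the file's name. Stathmin and p27 status were additive terms over all 15 arrays; the difference within each p27 status and the interaction came from a mean per genotype. Tests were two-sided limma tests with Benjamini-Hochberg adjustment over all genes, or over all probes where stated. Channels alone were taken after Aquantile scaling. SE is the standard error of limma.

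Named genes were Stmn1 and Cdkn1b, the 25 symbols with the smallest p, the 12 with the smallest p within 10 Mb of Stmn1 and the 2 members with the smallest p in each of 44 lists; the text describes a part of these, and a result withheld for evaluation is not reported here. The comparison, its lists and windows were chosen with earlier results of these data known. No list was tested as a set. Array number limits precision. The p-values of the additive fit are set against the spread of these cultures around additive genotype levels. A stathmin difference that varies with p27 status adds to that spread. The replicate numbers were not used as pairs: same-numbered arrays had residual correlations of -0.32 to 0.43, with 12 of 21 over 0.1. The fit was tested on simulated data. Alternatives covered background, normalization, filter, probe, model, blocks, weights, channels and left-out arrays.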

Additional observations from a re-analysis of the deposited data

Results flagged for a closer look

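In 9 of 128 sets of 4 arrays of 1 genotype, over 42 genes named in the text, 1 array stood apart from the other 3 by Dixon's test; chance gives about 1 in 20. In wild type, array 1 was low for Ciapin1 (-0.45 against 0.23 for the nearest) and high for the brighter Gadd45gip1 probe (0.72 against -1.20), and array 2 was low for Krt7 (0.40 against 1.06). In p27 knock-out, array 1 was high for Crnde (0.0022 against -0.27), Mcpt9 (-0.93 against -1.95) and Map1s (0.55 against -0.31), and array 3 was high for Clgn (1.11 against 0.10). In stathmin knock-out, array 1 was low for Lpcat2 (-0.39 against 0.83) and array 2 was high for Mtfr1l (0.19 against -0.10). Each value is a log2 ratio of sample over reference.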

How the results depend on the processing

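The count of 2 called genes, both within 10 Mb of Stmn1, ranged from 0 to 6 over 40 other settings. It was 1 (Rpl11) with no filter on dim probes, with a mean per genotype, and with wild type 3 and 4 averaged, 1 (Pdik1l) in the sample channel alone, and 1 (Stmn1, at -2.02) with the mean of a gene's probes. It was 4 with every probe on its own (3 of them within 10 Mb), 4 on the arrays with low Xist (1 within 10 Mb: Rpl11, beside ENSMUST00000033039, ENSMUST00000092045 and LOC629581) and 6 with array weights (those 4, Pdik1l and F830004M19Rik). Under the replicate block, the slide block, Xist as a covariate and the reference channel alone, 2 genes were called, 1 within 10 Mb: Rpl11, beside ENSMUST00000033039. Leaving out 1 array gave 1 to 2 calls and 1 to 2 within 10 Mb. Settings chosen after seeing the data left out a slide: without slide 3, 0 genes passed (107 at an unadjusted p under 0.05; Rpl11 -1.57, adjusted p = 0.146), and without slide 2 or 4 the count was 1, within 10 Mb.

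Pdik1l lost its call in 22 and Rpl11 in 3 of 39 settings. Of the other named genes, most had an adjusted p near 1 as reported, so an unchanged call says little of them. The mean of its probes turned Gadd45gip1 to -0.38. The dimmer Stmn1 probe stayed between -3.53 and -3.68 with 1 array left out. Genes at an unadjusted p under 0.05 numbered 107 to 1415 outside the reference channel. Of them 12 to 21 lay within 2 Mb of Stmn1 and 13 to 56 in the chromosome 8 window; the highest total and window count came with array weights. The reference channel alone gave 3 and 6. The interaction called 0 genes also with a slide or replicate block. The cause of these shifts was not tested.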

Other observations

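Some probes that kept the array's own transcript name were among the strongest by p and are described in the array files as relatives of genes in the 2 stretches; they were singled out after their values were seen. LOC629581, described as similar to the nucleosome-binding protein HMG-17, had a log2 difference of -1.14 (SE 0.206, adjusted p = 0.253), and was below 0 within both p27 statuses (-1.45 against wild type and -0.78 against p27 knock-out). Hmgn2, the gene for HMG-17, starts on chromosome 4 at 133964739, within 1 Mb of Stmn1, and its own probe gave -0.02 (SE 0.187). AK012436, described as adenylate cyclase 7, was at 1.39 (SE 0.383), with 0.67 against wild type and 2.24 against p27 knock-out. Adcy7, the gene of that enzyme, lies in the chromosome 8 window, and its own brighter probe was at 0.45 (SE 0.308). Neither transcript passed with all arrays weighted equally; LOC629581 passed with array weights (-1.30, adjusted p = 0.0042) and on the arrays with low Xist (-1.35, adjusted p = 0.0073).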
